A study of Mus musculus with 6 samples.

Results

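The transcripts described here are 30 marker genes of the embryonic brain's own cells, 12 of neural progenitors (Sox2 to Gpm6a) and 18 of neurons (Tubb3 to Nefl), measured in RNA purified from brain endothelial cells. They were chosen by symbol from a named list, and all 30 were among the 23827 rows of the table. Mouse embryos at embryonic day E14.5 gave the RNA, on a mixed C57BL/6 x 129/Sv background, by translating ribosome affinity purification (TRAP), which pulls down tagged ribosomes with the RNA they carry. There were 3 wild-type libraries and 3 libraries of embryos that overexpress Axin1 with an IRES-LacZ reporter from the Rosa26 (R26) locus, and the mothers of both groups had been given tamoxifen at E12.5. Axin1 holds together the proteins that send beta-catenin to degradation, and an excess of it is known to lower Wnt/beta-catenin signalling, whose effect on brain vessels the comparison addresses. The labels call the libraries of a group biological replicates and do not say how many embryos were pooled or which promoter drives recombination. RNA that had not been through the purification was not analysed here, so an enrichment of endothelial over neural RNA could not be measured, and whether the neural transcripts were carried over from other cells was not tested.

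Neural progenitors line the ventricles of the developing brain and divide there. Radial glia, their main class, hold the transcription factors Sox2 and Pax6, pass through Eomes-positive intermediate progenitors and give rise to neurons, which then switch on a cytoskeleton and synaptic machinery of their own. Blood vessels grow through this tissue from the outer surface, in close contact with radial glial fibres and newborn neurons, and endothelial cells are not known as the main source of most of these transcripts. Nes is an exception, since growing endothelium is also known to make nestin, and Dbi is made by many cell types.

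Libraries held 21076922 to 62507510 recovered reads, and the wild-type ones were 1.84 times as deep on average. Axin1 itself rose from 14.4 ± 0.798 to 37.8 ± 0.349 RPKM (reads scaled to transcript length and library depth; SD, n = 3), in the labelled direction. Endothelial genes stood high in every library: Cdh5 had 370 ± 22.4 and 394 ± 50.7 RPKM and Pecam1 353 ± 16.6 and 386 ± 23.6 RPKM in wild type and Axin1. Column names carry 1 tag for all wild-type and another for all Axin1 libraries, with no meaning given, and if it marks a batch, that batch cannot be told apart from the genotype in any result given here.

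To show what lies at the start of the genes that moved most, the promoter windows of the called progenitor and neuron members with the largest fold changes, Sox2 and Elavl4, are given with that of Fabp7, which was added after the values were seen. Each runs from 250 bases before to 50 bases after a RefSeq start site, 5′ to 3′ on the gene's strand, in build GRCm38.p6, whereas the reads were placed on mm9. Capitals mark the motifs searched on both strands. Sox2 lies at chr3:34649745-34650044 (+), Fabp7 at chr10:57784673-57784972 (+) and the Elavl4 window, the richest in matches of 4 listed for that gene, at chr4:110287478-110287777 (-).
Sox2: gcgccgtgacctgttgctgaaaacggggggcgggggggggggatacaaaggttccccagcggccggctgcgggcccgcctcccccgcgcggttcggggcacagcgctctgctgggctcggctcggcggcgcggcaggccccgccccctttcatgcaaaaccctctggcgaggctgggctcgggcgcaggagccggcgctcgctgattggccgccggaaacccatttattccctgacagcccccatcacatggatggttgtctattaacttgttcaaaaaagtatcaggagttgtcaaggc
Fabp7: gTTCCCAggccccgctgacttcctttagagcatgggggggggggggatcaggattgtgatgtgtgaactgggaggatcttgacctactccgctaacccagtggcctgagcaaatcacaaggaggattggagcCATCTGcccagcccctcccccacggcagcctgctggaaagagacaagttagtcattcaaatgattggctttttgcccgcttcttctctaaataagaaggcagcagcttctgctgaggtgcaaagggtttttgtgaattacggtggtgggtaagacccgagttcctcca
Elavl4: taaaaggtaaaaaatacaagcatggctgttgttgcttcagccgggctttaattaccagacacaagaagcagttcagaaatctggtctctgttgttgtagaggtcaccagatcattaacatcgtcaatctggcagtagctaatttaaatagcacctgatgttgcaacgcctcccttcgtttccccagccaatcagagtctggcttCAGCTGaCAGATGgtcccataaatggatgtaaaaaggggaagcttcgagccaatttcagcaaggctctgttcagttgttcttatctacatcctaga

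The Sox2 window held none of the 5 motifs searched. These were the TCF/LEF core CTTTGA, the E-boxes CAGCTG and CAGATG that proneural factors are known to bind, the core TGGGAA of the Notch effector RBPJ, and the left part TTCAGCACC of the RE1 element through which neuronal genes are silenced elsewhere. Elavl4 held CAGCTG and CAGATG next to each other, starting at -46 and -39 from the start site. Fabp7 held a CAGATG and a TGGGAA match, both on the reverse strand, at -118 and -249. Windows were found for 25 members. Of the 17 windows of neuron members, 6 held CAGATG (35.3%) and 4 held CAGCTG (23.5%), against 17.2% and 16.3% of all 32851 windows. The CAGATG windows belonged to Elavl4, Gad2, Neurod2 and Stmn3, and the CAGCTG windows to Elavl3, Elavl4 and Ina. TGGGAA and CTTTGA were each held by 1 of the 17 (5.88%). Of the 15 windows of progenitor members, 5 held TGGGAA (33.3%, against 25.6% of all) and 1 held CTTTGA (6.67%, against 16.0% of all). Of the same 15, 1 held CAGATG and 0 held CAGCTG. No member's window held that RE1 part, nor did most others (0.371% of all windows). Several windows belong to the same gene and overlap, so these are descriptions of the letters and not counts of bound sites.

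Neural transcripts were plentiful in the purified RNA of wild-type embryos, and all 30 members passed the filter of a mean of at least 1 RPKM. Nes, which encodes an intermediate filament of progenitors and growing vessels, had 373 ± 32.5 RPKM in wild type (SD, n = 3), rank 67 of the listed rows and close to Cdh5. Tubb3, the neuronal beta-tubulin, had 290 ± 47.2 RPKM (rank 113), and the neurofilament gene Ina had 176 ± 16.1 RPKM (rank 241). The lipid-binding proteins of radial glia and other cells, Dbi and Fabp7, followed with 149 ± 22.6 and 146 ± 28.3 RPKM. At the other end stood Neurod1 with 3.73 ± 0.394 RPKM and Gad2 with 4.99 ± 0.60 RPKM, the latter encoding an enzyme of GABA synthesis. Even the shallowest member and library, Hes5 in an Axin1 library, still had 188 reads. The median wild-type level was 24.7 RPKM over the progenitor members and 39.2 RPKM over the neuron members, against 266 RPKM over 12 pan-endothelial genes.

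Summed over the list, progenitor members came to 811 to 1003 RPKM in the wild-type libraries, which was 28.6% to 36.4% of the sum of the pan-endothelial genes. Nes, which growing endothelium also makes, was the largest term, and without it the wild-type sums were 458 to 592 RPKM. The neuron members came to 900 to 1090 RPKM, or 31.7% to 39.5% of the pan-endothelial sum. The level of the neural members varied between replicates of a group. Wild-type replicate 2 was the lowest of its group for 8 of 12 progenitor and 12 of 18 neuron members, against 38.4% of all tested genes. Among the Axin1 libraries, replicate 2 was the highest for 7 of 12 and 11 of 18, against 38.2% of all tested genes.

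**Figure D1:**
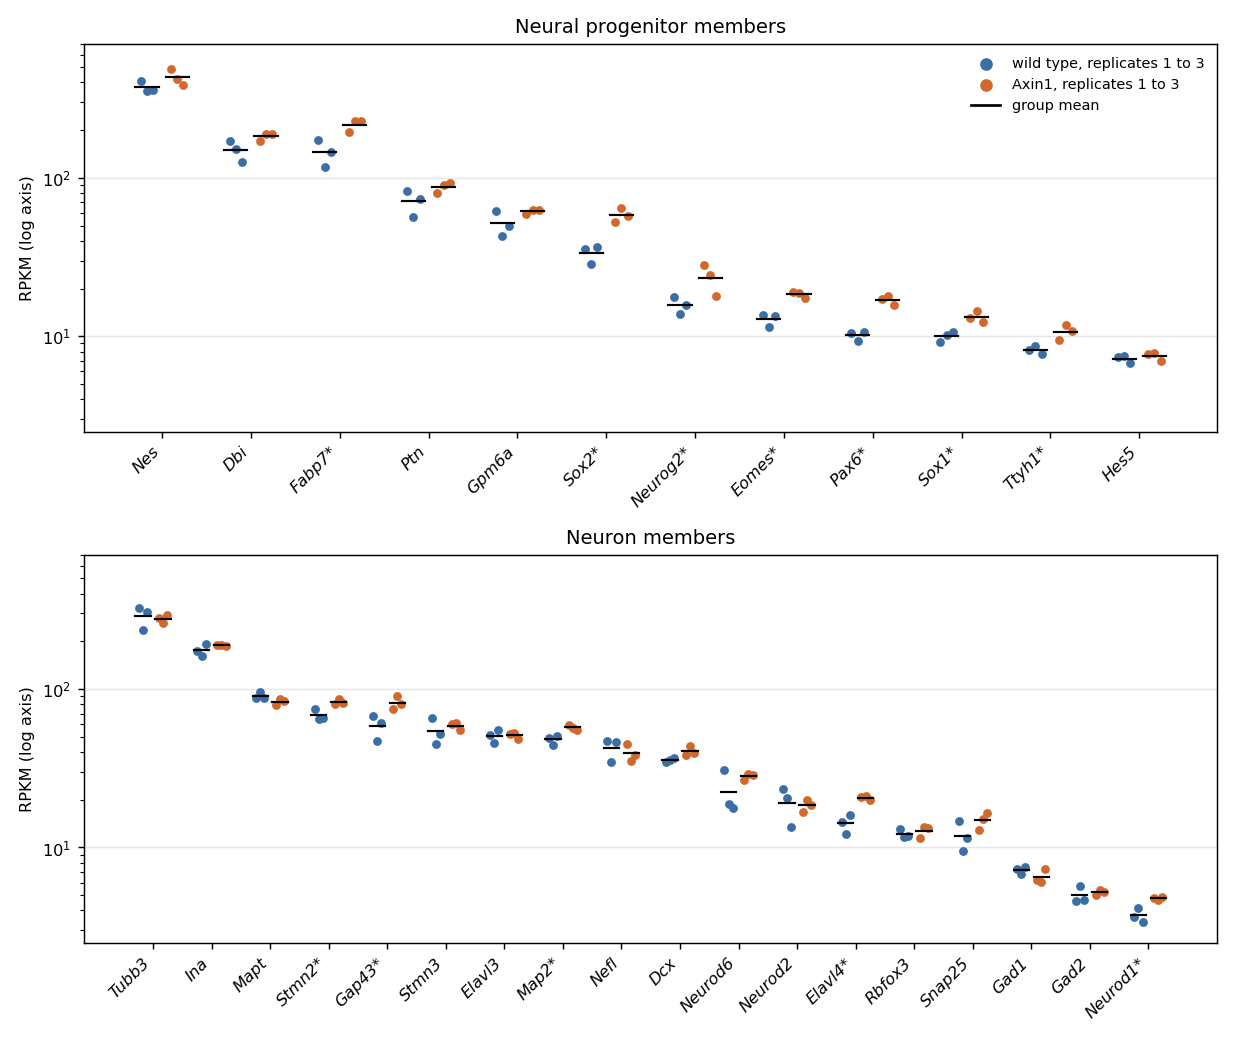
RPKM (log axis) of each progenitor (top) and neuron (bottom) member in the 3 wild-type and 3 Axin1 libraries, ordered by wild-type level, with lines at the group means and an asterisk at limma adjusted p under 0.05. Levels run from under 5 RPKM (Neurod1) to over 300 RPKM (Nes), and the Axin1 points of Sox2, Pax6 and Eomes lie clear of the wild-type ones.

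With Axin1 overexpression, 7 of 12 progenitor members rose and 0 fell by limma on log2(RPKM + 1), with p adjusted over all 12493 tested genes and a threshold of 0.05. Among all tested genes, 14.4% were higher and 8.37% lower by this rule. The 12 members all had fold changes above 0, with a median log2 fold change of 0.36 against 0.04 over all tested genes. The 3 Axin1 libraries lay above the 3 wild-type ones for 8 of the 12, whereas 28.0% of tested genes did so and 15.9% lay below. In bulk RNA such as this, more cells of a type and more RNA per cell cannot be told apart. Nor can either be told apart from more RNA of non-endothelial cells coming through the purification.

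Sox2, the factor that keeps neural cells in the progenitor state, showed the largest fold change among the members. It had 35.7, 28.4 and 36.7 RPKM in wild-type replicates 1 to 3 and 52.9, 64.6 and 57.0 RPKM in the Axin1 replicates. Every Axin1 library was well above every wild-type one, and the Axin1 mean was higher by 73.1%. That is 0.78 on the log2 scale, with an SE of 0.11 and a limma adjusted p of 0.0031. Pax6, which directs cortical radial glia, had 10.6, 9.38 and 10.6 RPKM in wild type and 17.2, 18.1 and 15.8 RPKM with Axin1. Again the groups were apart, by 0.69 in log2 with an SE of 0.07 and a limma adjusted p of 0.00085. Sox1, a close relative of Sox2 in the early neural lineage, moved less, from 9.25, 10.2 and 10.6 to 13.1, 14.4 and 12.3 RPKM (log2 fold change 0.37). Without Axin1 replicate 2 the Sox1 call was lost (adjusted p = 0.057), while those of Sox2 and Pax6 held under each of 17 alternative settings.

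Of 3 further radial glia members, Fabp7 and Ttyh1 passed and Hes5 did not. Fabp7, a fatty acid binding protein of radial glia, had 174, 118 and 146 RPKM in wild type and 193, 228 and 227 RPKM with Axin1, or 0.58 more in log2, with an SE of 0.13 and a limma adjusted p of 0.019. The spread in wild type was wide, though the lowest Axin1 library was above all of it, and the call was lost without Axin1 replicate 2 or 3 (adjusted p = 0.072 and 0.062) and after correction for GC content and length (0.081). Ttyh1, a membrane channel protein of progenitors, went from 8.13, 8.71 and 7.70 to 9.46, 11.7 and 10.8 RPKM (log2 fold change 0.34). Dropping wild-type replicate 1 or 3, or Axin1 replicate 2 or 3, ended that call (adjusted p of 0.056, 0.064, 0.089 and 0.07). Hes5, the Notch target that holds progenitors undifferentiated, had 7.40, 7.48 and 6.81 RPKM in wild type and 7.70, 7.89 and 7.0 RPKM with Axin1, so that the groups overlapped (log2 fold change 0.05, adjusted p = 0.61).

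Nes, Dbi, Ptn and Gpm6a did not pass either. Nes had 411, 353 and 356 RPKM in wild type and 487, 419 and 388 RPKM with Axin1 (log2 fold change 0.20, adjusted p = 0.156), with overlapping groups. It passed after correction for GC content and length (0.38, adjusted p = 0.029). Ptn, a secreted growth factor, Dbi and Gpm6a, a membrane glycoprotein of growing processes, had log2 fold changes of 0.31, 0.30 and 0.27 with adjusted p of 0.108, 0.074 and 0.131. For Dbi the groups only just missed overlapping, at 126 to 170.8 RPKM in wild type against 171.0 to 190 RPKM with Axin1. These 3 genes passed once wild-type replicate 1 was left out (adjusted p = 0.045, 0.034 and 0.021).

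The members of the step from radial glia to neuron were both higher. Eomes, the factor of intermediate progenitors, had 13.6, 11.4 and 13.5 RPKM in wild type and 19.1, 18.7 and 17.4 RPKM with Axin1. The groups were far apart for their spread (log2 fold change 0.49, SE 0.08, limma adjusted p = 0.005), a call that held under all 17 alternatives. Neurog2, the proneural factor that starts glutamatergic differentiation, had 17.6, 13.7 and 15.8 RPKM in wild type and 28.06, 24.23 and 17.97 RPKM with Axin1. Its lowest Axin1 library was just above the highest wild-type one (log2 fold change 0.53, SE 0.15, limma adjusted p = 0.038). The Neurog2 call was lost under 10 of 17 alternatives, among them the median of ratios (adjusted p = 0.069) and leaving out wild-type replicate 2 or 3 (0.097 and 0.076) or Axin1 replicate 1 or 2 (0.10 and 0.116).

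**Figure D2:**
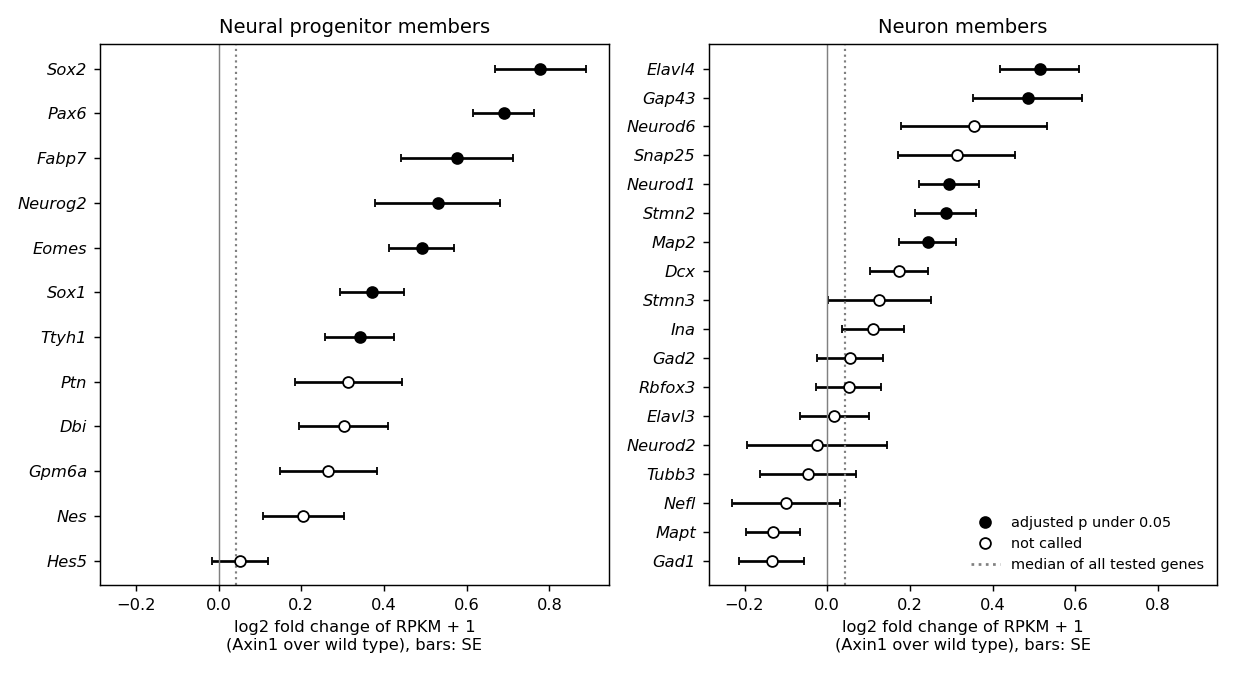
Log2 fold change of RPKM + 1, Axin1 over wild type, for each member, with SE bars, filled where limma adjusted p was under 0.05 and with a dotted line at the median of all tested genes (0.04). All progenitor members lie right of 0, from Hes5 at 0.05 to Sox2 at 0.78, while neuron members run from Gad1 at -0.13 to Elavl4 at 0.51.

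Of the 18 neuron members, 5 rose and 0 fell, 13 had fold changes above 0, and the median log2 fold change was 0.12. The Axin1 libraries lay above the wild-type ones for 6 of the 18, a share near the 28.0% of all tested genes. They lay below them for 1 of the 18, a smaller share than the 15.9% of all tested genes. Of all tested genes 14.4% were higher and 8.37% lower. Without Axin1 replicate 2 or 3, or after correction for GC content and length, 1 of the 5 calls was left. That remaining gene was Elavl4 in each case.

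Elavl4 encodes an RNA-binding protein of differentiating neurons. It had 14.6, 12.1 and 16.1 RPKM in wild type and 20.91, 21.07 and 19.97 RPKM with Axin1, with tight Axin1 values above all wild-type ones. The difference was 0.51 in log2, with an SE of 0.10 and a limma adjusted p of 0.0088, and the call held under all 17 alternatives. Its paralogue Elavl3, which follows the same lineage, stood at 51.3, 45.4 and 55.3 RPKM against 52.2, 53.0 and 48.1 RPKM, with full overlap (log2 fold change 0.02, or -0.03 with the median of ratios). The pair thus differed in their values within the same libraries, and this difference was not tested.

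Gap43, Stmn2 and Map2, of axon growth and the microtubules, were the called genes of the neuronal cytoskeleton and growth cone. Gap43, the growth cone protein, had 68.0, 46.8 and 61.2 RPKM in wild type and 74.5, 90.5 and 80.4 RPKM with Axin1 (log2 fold change 0.48, SE 0.13, limma adjusted p = 0.033). Wild-type replicate 2 was far below its group, and dropping wild-type replicate 3 or any Axin1 library ended the call (adjusted p between 0.051 and 0.116). Stmn2, a microtubule destabilizer of growing axons, went from 74.6, 64.5 and 65.5 to 80.7, 87.2 and 82.1 RPKM (log2 fold change 0.29). Map2, a microtubule protein of dendrites, went from 49.4, 44.6 and 50.8 to 59.3, 56.9 and 55.5 RPKM (log2 fold change 0.24). Both had no overlap, yet dropping wild-type replicate 2 or 3, or Axin1 replicate 2 or 3, ended the Stmn2 call (adjusted p between 0.061 and 0.107). For Map2, dropping each library other than wild-type replicate 3 ended it (between 0.064 and 0.108).

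The other 6 cytoskeleton members, Tubb3, Ina, Nefl, Mapt, Dcx and Stmn3, did not pass. Tubb3 had 324, 236 and 308 RPKM in wild type and 281, 260 and 294 RPKM with Axin1, so that the Axin1 values sat inside the wild-type range (log2 fold change -0.05, adjusted p = 0.794). Ina stood at 161 to 193 RPKM against 188 to 190 RPKM (0.11, adjusted p = 0.306). Nefl, the light neurofilament chain, stood at 34.6 to 47.2 against 35.2 to 45.2 RPKM (-0.10, adjusted p = 0.608). Mapt, which encodes tau, was the member whose Axin1 libraries all lay below wild type, with 88.5, 96.4 and 87.7 against 79.0, 86.1 and 83.5 RPKM (log2 fold change -0.13, adjusted p = 0.178). Dcx, the microtubule protein of migrating neurons, had Axin1 values of 38.2 to 43.7 RPKM just above wild-type values of 34.5 to 36.9 RPKM (0.17, adjusted p = 0.102). Stmn3, related to Stmn2, overlapped between the groups (0.13, adjusted p = 0.49).

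Of the 3 Neurod factors of the glutamatergic lineage, Neurod1 was called. Neurod1, which acts just after Neurog2, had 3.65, 4.15 and 3.38 RPKM in wild type and 4.82, 4.68 and 4.84 RPKM with Axin1 (log2 fold change 0.29, SE 0.07, limma adjusted p = 0.023). Dropping each library other than wild-type replicate 2 ended its call (adjusted p between 0.057 and 0.071) and after the GC and length correction (0.144). Neurod6, of maturing cortical neurons, had 30.9, 18.9 and 17.6 RPKM in wild type and 26.7, 29.0 and 28.8 RPKM with Axin1 (0.36, adjusted p = 0.173). Wild-type replicate 1 alone lay above the Axin1 values, and without it Neurod6 passed (0.60, adjusted p = 0.0036). Neurod2, another relative, had 23.3, 20.6 and 13.5 against 16.8, 19.9 and 18.6 RPKM, with full overlap (-0.02, adjusted p = 0.928).

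The members Rbfox3, Snap25, Gad1 and Gad2, of mature and of inhibitory neurons, were not called. Rbfox3, the nuclear antigen of postmitotic neurons, stood at 11.7 to 13.1 against 11.5 to 13.5 RPKM (log2 fold change 0.05, adjusted p = 0.658). Snap25, of the synaptic fusion machinery, stood at 9.53 to 14.7 against 12.9 to 16.5 RPKM (0.31, adjusted p = 0.141, and 0.037 without wild-type replicate 1). Gad1 and Gad2, the enzymes that make GABA, had log2 fold changes of -0.13 and 0.05 (adjusted p = 0.238 and 0.646). Their levels overlapped between the groups, at 6.80 to 7.55 against 6.07 to 7.29 RPKM for Gad1.

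The authors' deposited table gave a narrower picture of the same members, by their own test on counts. In the authors' deposited table, by its adjusted p under 0.05, 6 progenitor members (Sox2, Pax6, Fabp7, Eomes, Sox1 and Ttyh1) and 1 neuron member (Elavl4) were higher with Axin1, and 0 of either group were lower. Over all 18917 genes with a value, the authors' deposited table called 3.91% higher and 4.97% lower. Neurog2 had an adjusted p of 0.149 and Gap43 one of 0.0713 in the authors' deposited table.

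Within each library, the progenitor sum can be set against the neuron sum, a ratio that no rescaling of a library can move. It was 0.921, 0.901 and 0.817 in wild-type replicates 1 to 3 and 1.07, 1.06 and 1.02 in the Axin1 replicates. All Axin1 libraries were higher than all wild-type ones. Leaving out Nes, the largest term, gave 0.544, 0.509 and 0.476 in wild type and 0.612, 0.676 and 0.659 with Axin1. The progenitor sum itself was 811 to 1003 RPKM in wild type and 1099 to 1147 RPKM with Axin1, while the neuron sums, at 900 to 1090 and 1065 to 1079 RPKM, overlapped. Whether the fold changes of progenitor and neuron members differ was not tested, since the members were picked with results known.

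Other genes of these lineages, from lists put together by function, were read in the same fit. In that fit 14.4% of all tested genes were higher and 8.37% lower. Of 14 proneural and intermediate progenitor genes tested, 6 were higher and 0 lower, with a median log2 fold change of 0.20. Gadd45g went from 18.1 ± 2.76 to 25.7 ± 0.805 RPKM (log2 fold change 0.49) and Neurog1 from 1.97 ± 0.288 to 3.27 ± 0.53 RPKM (0.52), each SD with n = 3. The most abundant of that list, Mfng, did not pass (-0.04). Of 18 other radial glia genes, 4 were higher and 3 lower, with a median of 0.05. Id4, an inhibitor of bHLH factors, rose by 0.69 and Sox3, of the same family as Sox1 and Sox2, by 0.56 on the log2 scale. Sox9 and Nr2e1 were the other higher genes, by 0.55 and 0.52. Dach1, Tnc and Ptprz1 fell by 0.59, 0.81 and 0.28. The remaining genes were not called, with log2 fold changes from -0.22 (Notch1) to 0.23 (Sox21). Among these were Mfge8, the most abundant of the list (-0.08), and Slc1a3 (0.05) and Prom1 (-0.07), named after their values were seen. Dach1 and Tnc are also known from vascular and mesenchymal cells. The cell source of the genes of these lists, whether higher, lower or uncalled, was not tested.

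Neuronal genes outside the members were read from 3 lists. Of 38 other pan-neuronal genes tested, 4 were higher (St18 by 0.52, Mllt11 by 0.50, Myt1 by 0.65 and Celf4 by 0.46 on the log2 scale) and 3 lower (Cntn2, Kif1a and Stx1a, with -0.37, -0.31 and -0.28), and the median was 0.10. Both counts are at or below the shares of all tested genes (14.4% and 8.37%). Myt1l was the most abundant of them with 578 ± 197 and 594 ± 114 RPKM (SD, n = 3) and a spread too wide for a comparison. Among 16 genes of GABAergic neurons 6 were higher and 0 lower, with a median of 0.23. They included the ventral forebrain factors Lhx6, Isl1 and Dlx1, at 0.52, 0.51 and 0.41, whereas Sst did not pass (-0.10). Of 11 genes of glutamatergic cortical neurons 0 were higher and 1 lower by limma (median 0.12), and that was Reln, which went from 176 ± 48.6 to 112 ± 19.3 RPKM with overlapping groups (log2 fold change -0.62). Bcl11b, next in that list by p, had 0.23 and an adjusted p of 0.055.

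**Figure D3:**
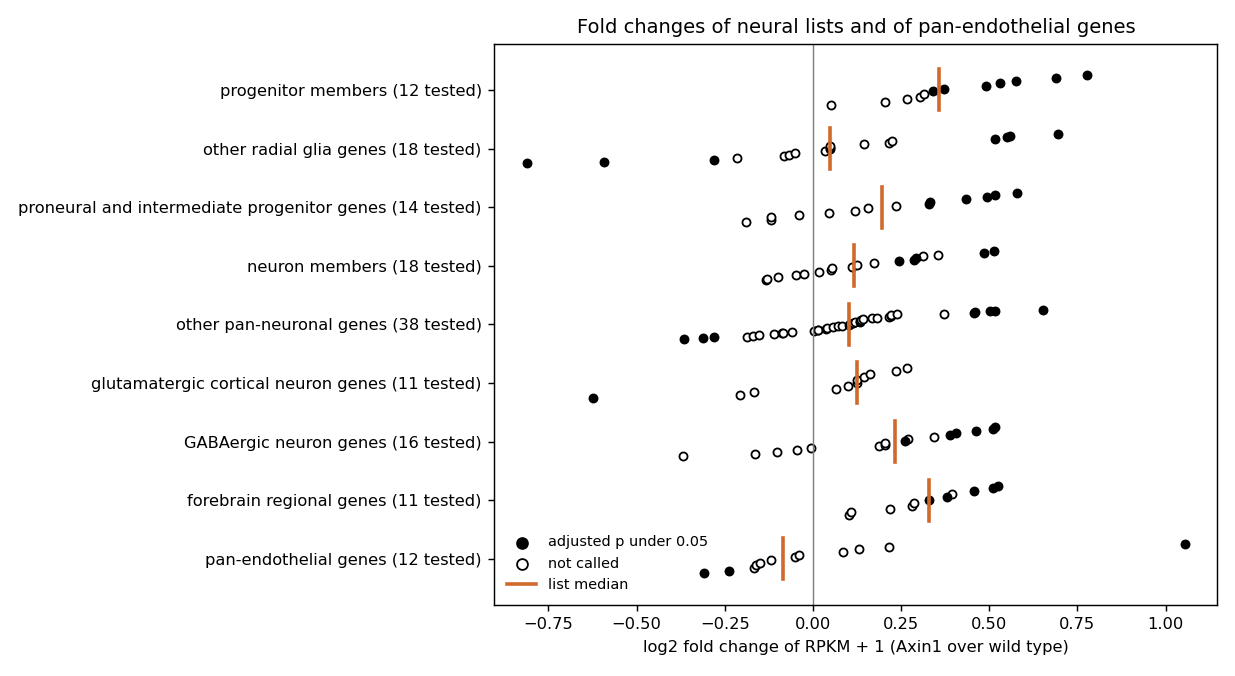
Log2 fold change of RPKM + 1, Axin1 over wild type, of every tested gene (points, filled where limma adjusted p was under 0.05) in 8 neural lists and in the pan-endothelial list, with bars at the list medians. Progenitor members (median 0.36) and forebrain regional genes (0.33) sit furthest right, and other radial glia genes have calls on both sides.

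Genes that mark regions of the brain were read in the same libraries, where 14.4% of all tested genes were higher and 8.37% lower. Of 11 forebrain genes, 5 were higher and 0 lower (median log2 fold change 0.33), among them Lhx2 (from 47.5 ± 4.27 to 68.3 ± 8.74 RPKM), Emx2 (0.52) and Gsx2 (0.46). Of 18 midbrain, hindbrain and spinal genes, 17 lay below the filter, and their sum was 4.58 to 7.22 RPKM in wild type and 3.72 to 4.84 RPKM with Axin1. Gbx2, the gene of that list above the filter and the largest part of its sum, had 2.55 ± 0.215 RPKM in wild type and 3.20 ± 0.481 RPKM with Axin1 (SD, n = 3), with the Axin1 libraries higher and no call (log2 fold change 0.24, adjusted p = 0.093). Of the 17 genes below the filter, 4 were lower in every Axin1 library than in every wild-type one: En2, Pax5, En1 and Pax2. These are genes of the midbrain-hindbrain boundary as Gbx2 is, and were named after their values were seen. En2 had 208, 72 and 148 reads in the wild-type libraries and 9, 11 and 2 in the Axin1 libraries, or 0.686 and 0.0602 RPKM on average. Pax5 had 77, 30 and 65 reads against 1, 1 and 0, and En1 had 148, 42 and 88 against 12, 9 and 3. Pax2 had 15, 11 and 14 reads against 3, 3 and 4. Ptf1a and Hoxc4, also below the filter, had higher means with Axin1, on 0 to 3 reads a library. In the fit with no filter, where 4.66% of genes were lower, Pax5 and En2 passed (adjusted p = 0.018 and 0.03) and the other genes of the list with a value there, En1 among them (0.062), did not. The forebrain sum was 21.6 to 27.0 times this regional sum in wild type and 37.7 to 44.5 times with Axin1. The part of the regional make-up of the samples in the results for the members was not tested.

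Lists for other cell types and for the cell cycle were read in the same libraries. By limma with no added scaling, 14.4% of all tested genes were higher and 8.37% lower. Pan-endothelial genes had summed levels of 2757 to 2836 RPKM in wild type and 2744 to 3017 RPKM with Axin1, with 1 of 12 higher (Emcn) and 2 lower (Tie1 and Esam). After scaling every library to these genes, 7 progenitor members and 2 neuron members were higher and 0 lower, against 7.97% of all tested genes higher and 7.80% lower under that scaling. Without that scaling, 10 of 15 DNA replication and mitosis genes, which endothelial cells and progenitors both use, were higher and 0 lower (median 0.29). Among them were Pcna (0.54), Ccnb1 (0.44) and Rrm2 (0.39). The 15 genes summed to 541 to 619 RPKM in wild type and 687 to 698 RPKM with Axin1. Erythroid genes had sums of 120 to 166 against 414 to 775 RPKM, with 5 of 5 tested higher, among them Hba-x and Hbb-y (log2 fold changes 2.26 and 2.08). Of that list, Hba-a1, Hba-a2 and Hbb-b1 were listed at 0 in every library, so the erythroid sums hold no reads of these globins. Why they stood at 0 was not tested. Pericyte and smooth muscle genes (5 of 10 tested lower, 0 higher) had sums of 73.7 to 87.0 against 56.2 to 72.6 RPKM. Meningeal fibroblast genes (3 of 10 lower, 0 higher) had sums of 193 to 319 against 212 to 217 RPKM. The part of each of these in the results for the members was not tested.

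**Figure D4:**
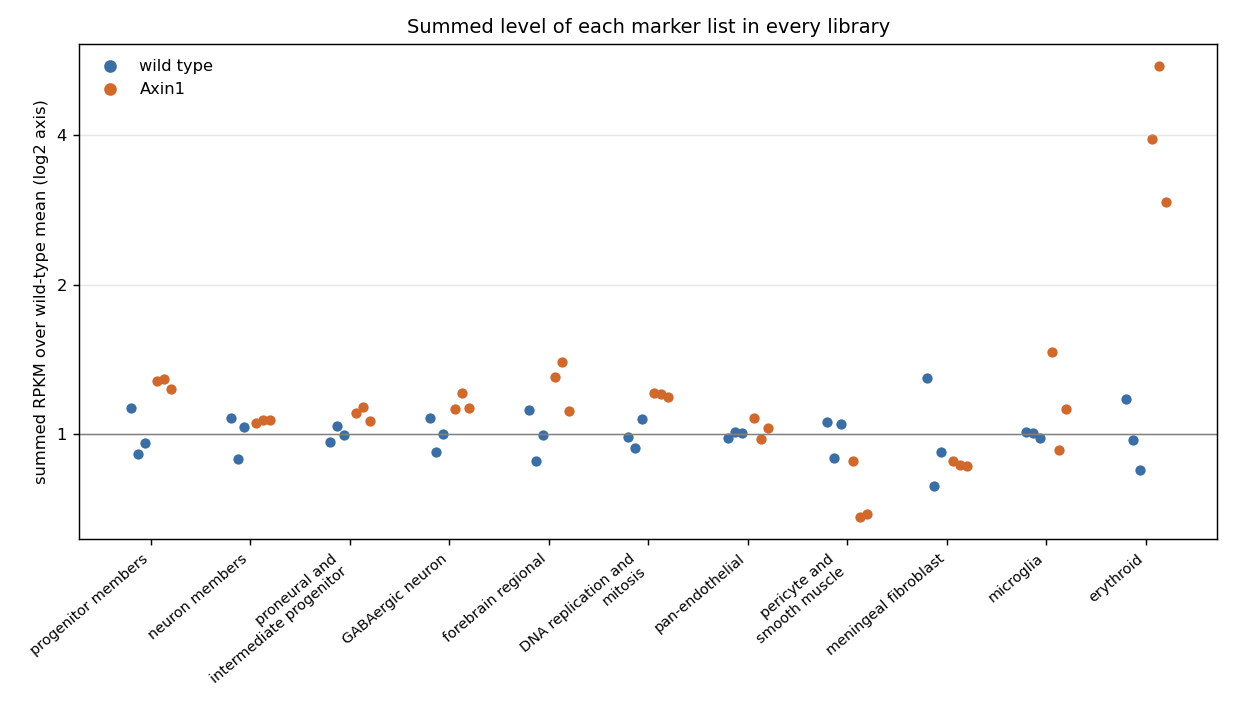
Summed RPKM of each marker list in every library, divided by the wild-type mean of that list (log2 axis), for 3 wild-type and 3 Axin1 libraries. Progenitor sums of the Axin1 libraries lie above all wild-type ones, neuron and pan-endothelial sums overlap, and erythroid sums spread furthest, up to 5.49 times the wild-type mean.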

How the data were processed

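RNA of 6 libraries, 3 per group, was compared. Each gene has a deposited RPKM in each library. No header names that unit. It was taken from the values: over 9976 genes, the implied transcript length was 0.991 times that of GENCODE transcripts (median). These were matched by RefSeq accession or else by symbol, and the GC and length correction used the same transcripts. Per the file headers, the deposited table also holds DESeq's group means (a signal of size-factor-scaled counts), their fold ratio, and p-values, raw and adjusted. Genes with values in 1 group only (796 in wild type, 365 in Axin1) showed which mean is whose. Bowtie, DESeq and the build mm9 are named in the submitters' processing notes, without versions, while the sources used here do not name the read counter. RPKM and group means together gave back the reads, as whole numbers (tolerance 0.05 reads) for 100.0% of values of single-transcript genes and 24.0% of those with several transcripts.

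Log2(RPKM + 1) was fitted with limma 3.58.1 in R 4.3.3, with group as the only factor, on the 12493 rows with a mean of at least 1 RPKM, and p was adjusted by Benjamini-Hochberg over all of them (two-sided, threshold 0.05). A fold change on this scale understates the change of low genes. Exact permutation was not used, as 3 libraries a group allow no p under 0.10. Alternatives changed the pseudocount, filter, scaling, variance model, block, GC and length correction, or left out a library. The members and lists were chosen with earlier results of these data known. Named genes are the members, Axin1, Pecam1, Cdh5, the 3 genes with the lowest p in each list with a call and the most abundant gene of each list. Some genes the rule takes stand only in the counts, and some are not reported here. Others were named after their values were seen, to complete a count. The fit was tested on simulated reads in 5 runs, with 1 spread setting for all genes. It called 4.4% of the changes of 0.25 in log2, 57.2% of those of 0.5 and 99.2% of those of 1. Most changes near 0.25 were thus missed there. Promoter windows are RefSeq's (GRCm38.p6). Summaries and plots used matplotlib 3.10.9, numpy 2.4.6 and pandas 2.3.3 under Python 3.11.15. For a transcript of 1 kb, a library with no read allows up to 3 reads, which is 0.048 to 0.142 RPKM by library (counting error only).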

Additional observations from a re-analysis of the deposited data

How the results depend on the processing

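The direction of the calls held throughout: 0 members were lower under any of the 17 alternatives. The progenitor count of 7 was 4 with no filter on low genes, where more genes share the adjustment, and 3 to 9 with a library left out, the lowest without Axin1 replicate 2. The neuron count of 5 was 3 with the median of ratios, 2 with pan-endothelial scaling, 1 after the loess correction for GC content and transcript length, and 1 to 5 with a library left out. The count over all genes, 2846, was 1054 to 2318 with a library left out, the lowest without Axin1 replicate 2 and 1402 without Axin1 replicate 3. Its split of 1800 higher and 1046 lower became 1248 and 1392 with the median of ratios, 1391 and 1276 with a shared upper quartile and 996 and 974 with pan-endothelial scaling. The cause of these shifts was not tested.

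Uncalled neuron members near 0 changed sign. Tubb3 was 0.0052 and Neurod2 0.0916 after the GC and length correction, and Elavl3 was -0.0328 with the median of ratios, -0.0191 with the upper quartile and -0.0035 with pan-endothelial scaling. With a library left out, Tubb3 ran from -0.1871 to 0.0419, Neurod2 from -0.2445 to 0.1273, Elavl3 from -0.0588 to 0.0818 and Stmn3 from -0.0013 to 0.2714.

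With the replicate number as a block, 7 progenitor and 4 neuron members were called (2675 genes in all), Map2 being lost. Same-numbered libraries of the 2 groups had correlations of their deviations from the group means of 0.0785, 0.127 and 0.0593, so the numbers were not taken to pair the samples, although each library correlated best with its own number. The sum of the progenitor members without Nes was added after the data were seen. With 3 libraries a group, an uncalled member is not shown to be at the same level in both.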

Other observations

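Several marker genes of some other brain cell types were low in these libraries, and their level in unpurified RNA was not analysed. Of 13 genes of astrocytes and oligodendrocytes, 6 lay below the filter, with Gfap at 0.0775 and Aqp4 at 0.0355 RPKM in wild type. Others were not low: Aldoc had 13.9 RPKM in wild type and 18.8 RPKM with Axin1, and Gjb6 had 12.2 and 8.75 RPKM. Neither was called (limma adjusted p = 0.064 and 0.088), though the groups did not overlap for either, in opposite directions. The summed level of the list was 35.8 to 49.9 RPKM in wild type and 43.5 to 45.1 RPKM with Axin1. Olig2, which also marks ventral progenitors, was the 1 called gene, with 2.81 ± 0.0471 RPKM in wild type and 3.58 ± 0.349 RPKM with Axin1 (SD, n = 3), a difference of 0.27 in log2 (limma adjusted p = 0.029). Microglial genes summed to 70.3 to 72.0 RPKM in wild type and 66.4 to 104 RPKM with Axin1. Of 11 tested, Aif1 was higher (0.54) and 0 were lower, against 14.4% and 8.37% of all tested genes.

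Choroid plexus genes gave no call by limma among 5 tested. Ttr, the carrier of thyroid hormone made by that tissue, had 143 ± 22.4 RPKM in wild type and 96.9 ± 27.5 RPKM with Axin1 (log2 fold change -0.59, adjusted p = 0.065).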
